A study of Mus musculus with 3 samples.

Results

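The genes described here were 7 cytokine genes that activated lymphocytes are known to transcribe, namely Ifng, Tnf, Il2, Il21, Il10, Csf1 and Csf2. They were chosen by name from the 33696 genes listed in the deposited matrices, with earlier results of these data known. They were followed through CD8, Foxp3-negative CD4, Foxp3-positive, NK-receptor T, NK and ILC2 cells of 3 tumor libraries. Ifng encodes interferon-gamma, which activates macrophages and raises antigen presentation, and Tnf encodes tumor necrosis factor, an inflammatory cytokine that myeloid cells make as well as T cells. Il2 encodes a T cell growth factor, Il21 encodes a helper T cell cytokine that acts on B cells and CD8 T cells, and Il10 encodes a cytokine that restrains myeloid cells. Csf1 and Csf2 encode M-CSF and GM-CSF, the growth factors of macrophages and of granulocytes and macrophages. In lymphocytes these genes are mostly silent at rest and are switched on for short periods after antigen-receptor or cytokine signals, through factors such as NFAT, AP-1 and NF-kappaB, and their mRNAs are quickly degraded.

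The libraries came from tumors of KP1, a mouse small cell lung cancer line, grown under the skin of B6129SF1/J (F1) mice labelled Wild-type. Each mouse had received 500000 KP1 cells. The first library (mono-IL-10, whose treatment label reads Supermono-10) came from mice given a monomeric IL-10, and the second (IL-10/2-Trikine) from mice given an engineered protein that acts on the IL-10 receptor and on the IL-2 receptor beta chain. Both proteins were given at 3 µg of functional cytokine per dose on alternate days from day 7 to day 19, as the protocol of these libraries has it, whereas other passages on KP1 tumors start the cytokines earlier. The library labelled 10/2-Trikine + PD1 (here the combination) came from mice that also received anti-PD-1 antibody, 200 µg per dose on days 7, 11, 15 and 19. All tumors were taken on day 19. The protocol text can also be read as giving anti-PD-1 to every group, whereas the sample titles and the treatment field name the antibody in 1 library, and these were followed. According to the methods the mice were bought at 5 to 6 weeks of age. Their age at inoculation and the number of mice behind each library were not given in the sources used here, and no untreated library was analysed here. Each group was 1 library, so that no difference between treatments has a replicate check, no test was run, and all intervals cover counting error only. The treatment and the library cannot be told apart.

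The 3 libraries held between 158570946 and 197176873 unique molecular identifiers (UMIs, each counted as 1 captured transcript), and between 22235 and 26967 barcodes passed the cell filters, with medians of 4273 to 5562 UMIs per cell. Between 137 and 180 of the kept barcodes were found in both libraries of a pair, which is at most 0.793% of a library. The labels call the cells mouse T cells, but the sort was for CD45 and the libraries also held 4742 to 7873 monocyte/macrophage-like cells each. Level means UMIs of a gene in 1000000 UMIs of the population (CPM) throughout. The CD8 population held 4377, 4399 and 4418 cells in the mono-IL-10, IL-10/2-Trikine and combination libraries, in the order used for all triplets below. In the same order, the Foxp3-negative CD4 population held 1631, 2158 and 3478 cells, the Foxp3-positive population 217, 656 and 668, the NK-receptor T population 247, 2228 and 942, the NK population 655, 1139 and 1635, and the ILC2 population 36, 111 and 34. Between 88.8 and 94.3% of the Foxp3-negative CD4 cells had a Cd3e UMI. NK cells had none by definition and 63.5 to 79.2% of them had Ncr1, the NKp46 receptor. NK-receptor T cells came from a cluster led by Klra receptor genes and by the gamma-delta T cell receptor genes Trdc, Trgv1, Trgc4 and Trgc1. They had Trac, the T cell receptor alpha constant gene, in 83.8 to 92.6%, Klrb1c, an NK cell marker, in 29.6 to 43.1% and Ncr1 in 14.2 to 20.8%. By the rule, a gamma-delta T cell without a captured Trdc UMI also falls in this population. Il1rl1, the IL-33 receptor of ILC2, was found in 91.7 to 97.1% of the ILC2 population, but Cd3e was found in 22.2, 21.6 and 50% of it, so that part of the ILC2 population of the combination library held T cell transcripts.

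Free RNA, released by broken cells, was present in all libraries. In barcodes with at most 100 UMIs, taken as empty droplets, Ifng was at 73.4, 105 and 90.8 CPM, Tnf at 88.1, 39.96 and 65.3 CPM, Il10 at 35.2, 33.7 and 31.3 CPM and Csf1 at 21.6, 38 and 36.7 CPM. These droplets hold free RNA alone, whereas in a cell free RNA is added to the cell's own, so these levels are not those that free RNA gives in cells. As a measure of background in cells, the share of cells with a UMI was set beside that of neutrophil-like or B cell-like cells after thinning every cell to 1000 UMIs. B cell-like cells had Cd3e UMIs in 20.9 to 26.9%, so that their shares also hold transcripts of T cells.

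Among the 5 populations of at least 100 cells in every library, 6 of the 7 genes had their highest mean level over the libraries in Foxp3-negative CD4 T cells, and Il10 had it in Foxp3-positive cells. ILC2 cells had the highest mean of all for Tnf, Il2, Il21 and Csf2, on 36, 111 and 34 cells. For Il2 this mean rested on 1, 6 and 0 UMIs and for Il21 on 14, 9 and 0 UMIs. The Il21 interval of ILC2 cells lay above that of Foxp3-negative CD4 cells in 1 library and below it in 1. For Ifng, the counting interval of Foxp3-negative CD4 cells lay above that of the next population, Foxp3-positive cells, in 3 of 3 libraries, whereas NK cells and Foxp3-positive cells changed places between libraries. For Csf1, Foxp3-negative CD4 cells lay above Foxp3-positive cells in 2 libraries and below them with IL-10/2-Trikine.

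**Figure D1:**
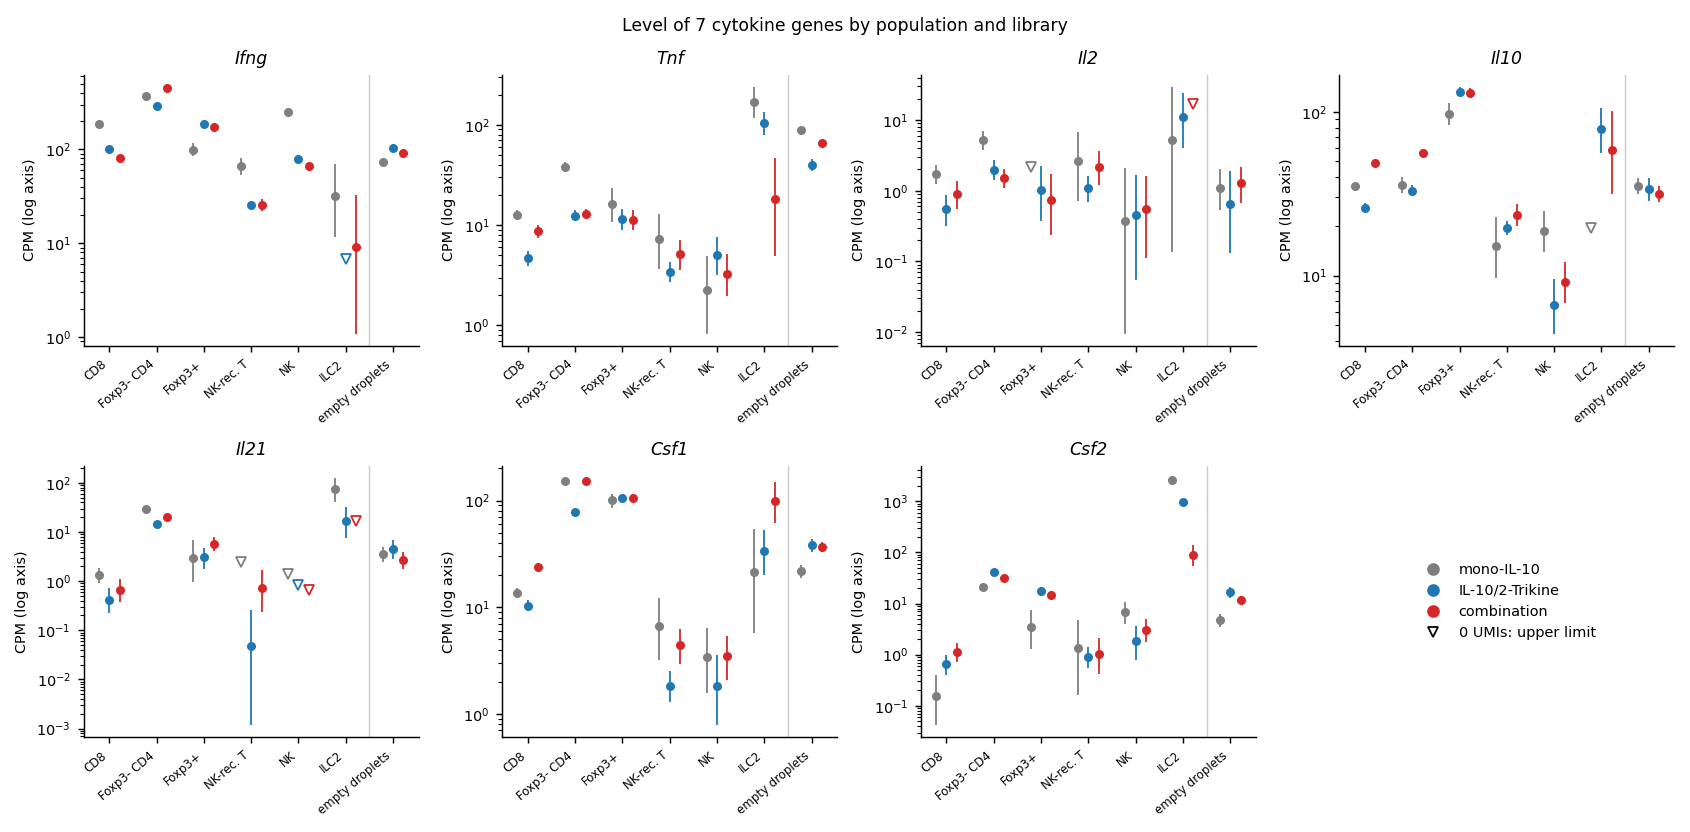
Level of each gene in CPM (log axis) in 6 lymphocyte populations and in empty droplets; points are the 3 libraries, bars are exact 95% Poisson intervals, and open triangles are upper limits where no UMI was counted. Over the libraries, the mean levels of Ifng, Il21 and Csf1 were highest in Foxp3-negative CD4 cells among the larger populations and that of Il10 in Foxp3-positive cells, while Csf1 with IL-10/2-Trikine was higher in Foxp3-positive cells and Csf2 was highest in ILC2 cells.

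Ifng, Csf1, Csf2 and Il21 had their highest level of the larger populations in the same Foxp3-negative CD4 cells and were high in the same cluster of T cells, so the DNA just upstream of their transcription start sites is shown. RefSeq promoter sequences (GRCm38.p6) matched 6 of the 7 genes. In the 250 bases upstream of the start, GGAAA, the core letters that NFAT factors recognize, was present on either strand in 6 of these 6 genes, and in 55.6% of 32851 promoters. TGANTCA, the letters of an AP-1 site, was present in 0 of the 6 and in 6.75% of promoters. TATAAA was found upstream of Il2, Ifng and Tnf, with its first base 31, 30 and 29 bases before the start, and in 12.4% of promoters. A match is a description of letters only. The following stretches run 5′ to 3′ on the strand of the gene from 205 to 46 bases before the start, and capitals mark GGAAA or its reverse complement.
Ifng, chr10:118440841-118441000, plus strand: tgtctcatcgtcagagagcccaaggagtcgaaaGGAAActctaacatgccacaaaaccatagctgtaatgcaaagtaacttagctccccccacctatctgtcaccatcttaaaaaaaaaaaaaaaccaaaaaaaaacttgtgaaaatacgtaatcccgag
Csf1, chr3:107760515-107760674, minus strand: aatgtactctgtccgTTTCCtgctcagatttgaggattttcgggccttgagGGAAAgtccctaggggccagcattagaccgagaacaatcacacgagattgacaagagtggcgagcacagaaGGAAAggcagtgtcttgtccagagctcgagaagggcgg
Csf2, chr11:54249945-54250104, minus strand: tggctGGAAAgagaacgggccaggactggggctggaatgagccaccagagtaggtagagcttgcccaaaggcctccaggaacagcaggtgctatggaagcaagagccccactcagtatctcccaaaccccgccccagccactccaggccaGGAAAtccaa
Il21, chr3:37232682-37232841, minus strand: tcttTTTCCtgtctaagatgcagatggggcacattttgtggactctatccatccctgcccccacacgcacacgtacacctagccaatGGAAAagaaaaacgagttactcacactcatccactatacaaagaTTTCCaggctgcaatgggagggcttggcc
Ifng held 1 match in this stretch, Csf1 and Il21 held 3 each and Csf2 held 2.

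Ifng was found in every T and NK population. In Foxp3-negative CD4 cells its level was 369 CPM (356 to 382) with mono-IL-10, 289 CPM (281 to 296) with IL-10/2-Trikine and 455 CPM (447 to 463) with the combination, each with its exact 95% Poisson interval. After thinning, 19.1, 14.9 and 20.4% of these cells had an Ifng UMI (39.5, 42.7 and 47.8% before thinning), against 0.678, 0.907 and 1.45% of neutrophil-like cells. The 3 intervals of the level did not overlap, with the combination highest and IL-10/2-Trikine lowest. In CD8 T cells the level was 187 CPM (182 to 192) with mono-IL-10, 101 CPM (97.6 to 105) with IL-10/2-Trikine and 79.97 CPM (76.3 to 83.8) with the combination. CD8 cells of the mono-IL-10 library were thus highest, and the thinned shares, 10.9, 6.34 and 5.60% (32.3, 23.2 and 17.3% before thinning), had the same order. Of the 4785 UMIs of Ifng in CD8 cells of the mono-IL-10 library, 338 came from 1 cell, and without the highest cell of each library the log2 ratio of IL-10/2-Trikine over mono-IL-10 was -0.80 in place of -0.89.

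NK cells had 251 CPM (233 to 271) with mono-IL-10, 78.1 CPM (70.000 to 86.8) with IL-10/2-Trikine and 66.1 CPM (59.5 to 73.3) with the combination, again highest with mono-IL-10, and thinned shares of 16.4, 6.19 and 5.97% (35.3, 14.1 and 12% before thinning). NK-receptor T cells had the lowest levels of the T and NK populations, at 66.1, 25.9 and 25.6 CPM. Their thinned shares were 7.50% (4.51 to 11.6%), 1.67% (1.18 to 2.30%) and 2.10% (1.27 to 3.26%), and the shares of the latter 2 libraries overlapped the neutrophil-like background. Foxp3-positive cells went the other way from CD8 and NK cells, with 99.6 CPM (85.3 to 116) with mono-IL-10, 186 CPM (175 to 197) with IL-10/2-Trikine and 172 CPM (162 to 182) with the combination. ILC2 cells held 6, 0 and 2 UMIs of Ifng, and none of these lay in ILC2 cells without a Cd3 UMI.

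For IL-10/2-Trikine over mono-IL-10, the log2 ratio of the Ifng level was -1.69 (-1.88 to -1.50) in NK cells, -1.35 (-1.66 to -1.03) in NK-receptor T cells, -0.89 (-0.95 to -0.82) in CD8 cells, -0.35 (-0.42 to -0.29) in Foxp3-negative CD4 cells and 0.90 (0.66 to 1.14) in Foxp3-positive cells. With TMM scaling the ratio in Foxp3-negative CD4 cells was -0.0959. Foxp3-positive cells were the one population of the 5 where the Ifng level was higher with IL-10/2-Trikine, but their thinned shares in the mono-IL-10 and IL-10/2-Trikine libraries, 5.85% (3.06 to 10%) and 9.12% (7.01 to 11.6%), overlapped, and the ratio was -0.12 in those without an Mki67 UMI. Between the combination and IL-10/2-Trikine, Ifng was higher in Foxp3-negative CD4 cells at 0.66 (0.61 to 0.70) and lower in CD8 cells at -0.34 (-0.42 to -0.25) and in NK cells at -0.24 (-0.46 to -0.02). In CD8 cells without an Mki67 UMI the direction turned, at 0.17 (0.01 to 0.33). Ifng was at -0.11 (-0.23 to 0.01) in Foxp3-positive and -0.02 (-0.27 to 0.23) in NK-receptor T cells, intervals that include 0.

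Tnf was at low levels in the lymphocyte populations other than ILC2. Foxp3-negative CD4 cells had 37.8 CPM (33.9 to 42.2) with mono-IL-10, 12.5 CPM (11 to 14.1) with IL-10/2-Trikine and 13 CPM (11.6 to 14.4) with the combination, with the mono-IL-10 library far above the other two. CD8 cells had 12.7 CPM (11.3 to 14.1) with mono-IL-10, 4.68 CPM (3.95 to 5.51) with IL-10/2-Trikine and 8.71 CPM (7.53 to 10.03) with the combination. Foxp3-positive cells had 16.2, 11.5 and 11.3 CPM. NK-receptor T cells stood at 7.27, 3.43 and 5.11 and NK cells at 2.26, 5.02 and 3.29 CPM. For comparison, monocyte/macrophage-like cells had 131, 125 and 166 CPM and neutrophil-like cells 298, 241 and 473 CPM, and free RNA of Tnf in empty droplets was at 88.1, 39.96 and 65.3 CPM, also highest with mono-IL-10. The thinned share of Foxp3-negative CD4 cells with Tnf was 3.65, 1.96 and 1.59% (11.8, 9.64 and 8.42% before thinning), that of CD8 cells 1.28, 0.231 and 0.807% and that of B cell-like cells 2.32, 0.571 and 1.48%. NK cells had thinned shares of 0.157, 0.399 and 0.359%. In the mono-IL-10 library the share of CD8 cells (0.966 to 1.66%) lay above that of NK cells (0.004 to 0.874%), whereas the intervals overlapped with IL-10/2-Trikine (0.111 to 0.424% and 0.109 to 1.02%, on 10 and 4 cells). B cells and NK cells can transcribe Tnf themselves, so neither gives a background of free RNA alone, and the part of free RNA in the difference was not tested. The log2 ratio of IL-10/2-Trikine over mono-IL-10 was -1.60 (-1.85 to -1.36) in Foxp3-negative CD4 and -1.43 (-1.73 to -1.15) in CD8 cells, -1.08 (-2.01 to -0.02) in NK-receptor T and -0.49 (-1.15 to 0.20) in Foxp3-positive cells. In NK cells it was 1.15 (-0.20 to 2.74) on 6 and 22 UMIs. With the combination, Tnf in CD8 cells was 0.90 (0.58 to 1.22) above IL-10/2-Trikine, whereas Foxp3-negative CD4 cells were at 0.06 (-0.18 to 0.30).

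Il2 was close to the limit of detection, with 224, 212 and 193 UMIs over all kept cells of the 3 libraries. Foxp3-negative CD4 cells held 45, 40 and 41 of these UMIs, a level of 5.21 CPM (3.80 to 6.97) with mono-IL-10, 1.98 CPM (1.41 to 2.69) with IL-10/2-Trikine and 1.51 CPM (1.08 to 2.05) with the combination. CD8 cells held 44, 17 and 20, a level of 1.72, 0.549 and 0.898 CPM. In both populations the mono-IL-10 library was highest, at log2 ratios of -1.40 (-2.05 to -0.75) and -1.65 (-2.55 to -0.81) for IL-10/2-Trikine over mono-IL-10. Fine clustering of the cells placed 18, 1.11 and 0.891% of the Foxp3-negative CD4 cells in a cluster that passed all 6 naive T cell markers, and Il2 was at 7.20 CPM in it over the pooled libraries. Without that cluster the ratio in Foxp3-negative CD4 cells was -0.34. Of the CD8 cells, 15.8, 3.93 and 2.47% lay in it, and without it their ratio was -1.38. NK cells held 1, 2 and 3 UMIs and Foxp3-positive cells 0, 6 and 5, too few for a ratio. A count of 0 in the 217 Foxp3-positive cells of the mono-IL-10 library allows a level of up to 2.14 CPM by the exact interval.

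Among the larger populations, Il21 was above all a transcript of Foxp3-negative CD4 cells. Their level was 29.6 CPM (26.1 to 33.5) with mono-IL-10, 14.2 CPM (12.6 to 16) with IL-10/2-Trikine and 19.96 CPM (18.3 to 21.7) with the combination, and 2.37, 1.36 and 2.15% of them had a UMI after thinning (5.82, 6.72 and 8.94% before). Foxp3-positive cells had 2.90, 3.05 and 5.70 CPM and CD8 cells 1.33, 0.420 and 0.673 CPM. No Il21 UMI was counted in NK cells of any library, which allows at most 1.39, 0.842 and 0.673 CPM, and NK-receptor T cells held 0, 1 and 5 UMIs. IL-10/2-Trikine over mono-IL-10 gave -1.06 (-1.31 to -0.81) in Foxp3-negative CD4 cells, and the combination over IL-10/2-Trikine gave 0.49 (0.28 to 0.70). In CD8 cells, where 2 cells held at least 50% of the 34 UMIs of the mono-IL-10 library, the first ratio was -1.66 (-2.71 to -0.70). ILC2 cells had a higher mean Il21 level than Foxp3-negative CD4 cells, 30.3 against 21.3 CPM, on 14, 9 and 0 UMIs. The 14 Il21 UMIs of ILC2 cells in the mono-IL-10 library came from 2 cells.

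Il10 was highest in Foxp3-positive cells, at 97.3 CPM (83.1 to 113) with mono-IL-10, 132 CPM (123 to 142) with IL-10/2-Trikine and 130.2 CPM (122 to 139) with the combination, with thinned shares of 8.29, 13.9 and 12.3% (24.9, 34.1 and 36.4% before thinning). Foxp3-negative CD4 cells had 35.9 CPM (32 to 40.1) with mono-IL-10, 32.9 CPM (30.5 to 35.5) with IL-10/2-Trikine and 55.9 CPM (53.1 to 58.8) with the combination. CD8 cells had 35.1 CPM (32.9 to 37.5) with mono-IL-10, 25.8 CPM (24.1 to 27.7) with IL-10/2-Trikine and 48.7 CPM (45.8 to 51.7) with the combination. In both, the combination was highest. Empty droplets were at 35.2, 33.7 and 31.3 CPM, at the level of Foxp3-negative CD4 cells of the first 2 libraries, and neutrophil-like cells had thinned shares of 2.03, 0.680 and 1.45% against 2.18, 3.50 and 4.83% in Foxp3-negative CD4 and 2.58, 1.52 and 4.13% in CD8 cells. NK-receptor T cells, at 15.2, 19.6 and 23.5 CPM, and NK cells, at 18.8, 6.62 and 9.13 CPM, had thinned shares of 1.25, 1.45 and 1.33% and 0.945, 0.599 and 0.719%. The part of free RNA in these was not tested. Those of the mono-IL-10 library lay below the neutrophil-like share of 6 in 295 cells, though within its interval (0.750 to 4.37%). That interval also holds the shares of Foxp3-negative CD4 and CD8 cells of this library, and the neutrophil-like share of the combination is 1 in 69 cells (0.0367 to 7.81%), from which nothing was read. The log2 ratio of IL-10/2-Trikine over mono-IL-10 was 0.44 (0.20 to 0.69) in Foxp3-positive cells, -0.44 (-0.58 to -0.31) in CD8 and -0.12 (-0.32 to 0.07) in Foxp3-negative CD4 cells. The last of these was 0.13 with TMM scaling, so that its direction depended on the scaling. The combination over IL-10/2-Trikine gave 0.91 (0.78 to 1.05) in CD8 cells, 0.76 (0.63 to 0.90) in Foxp3-negative CD4 cells and -0.02 (-0.16 to 0.12) in Foxp3-positive cells. By the rule, a regulatory T cell without a captured Foxp3 UMI falls in the Foxp3-negative population, and 13.7 and 16.6% of that population in the mono-IL-10 and combination libraries lay in a fine cluster led by Foxp3, Itgb8 and Ttn. Without that cluster the 2 ratios of Il10 in Foxp3-negative CD4 cells were -0.38 and 1.03.

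Csf1 was higher in both CD4 populations than in CD8, NK-receptor T and NK cells in every library. Foxp3-negative CD4 cells had 154 CPM (146 to 162) with mono-IL-10, 78.9 CPM (75.1 to 82.9) with IL-10/2-Trikine and 153 CPM (148 to 157) with the combination, with IL-10/2-Trikine at the lowest level and overlapping intervals for mono-IL-10 and the combination. Foxp3-positive cells had 100.2 CPM (85.8 to 116) with mono-IL-10, 107 CPM (98.3 to 115) with IL-10/2-Trikine and 107 CPM (99 to 115) with the combination, and these 3 intervals overlapped. The thinned shares were 11.1, 9.58 and 14.7% in the first population (21.6, 29.5 and 41.5% before thinning) and 11.2, 14.5 and 13.5% in the second (25.8, 38.4 and 39.97% before thinning). CD8 cells had 13.5 CPM (12.2 to 15.1) with mono-IL-10, 10.4 CPM (9.26 to 11.6) with IL-10/2-Trikine and 23.6 CPM (21.6 to 25.7) with the combination. NK-receptor T cells had 6.61, 1.83 and 4.38 CPM and NK cells 3.39, 1.83 and 3.47 CPM, both below the 21.6, 38 and 36.7 CPM of empty droplets, and CD8 cells were also below them. The thinned share of CD8 cells with Csf1 was 0.838, 0.853 and 2.06%, beside 0.772, 0 and 4.93% of B cell-like cells. Outside the lymphocytes, neutrophil-like cells were at 404, 325 and 436 CPM. For IL-10/2-Trikine over mono-IL-10 the log2 ratio was -0.96 (-1.07 to -0.86) in Foxp3-negative CD4 cells, but -0.31 as a mean over cells and -0.0985 in cells without an Mki67 UMI. It was 0.09 (-0.16 to 0.34) in Foxp3-positive and -0.39 (-0.61 to -0.16) in CD8 cells. In NK-receptor T cells it was -1.85 (-2.88 to -0.68) on 10 and 39 UMIs and turned to 0.57 once predicted doublets were removed. The combination over IL-10/2-Trikine gave 1.19 (0.99 to 1.39) in CD8 and 0.95 (0.87 to 1.04) in Foxp3-negative CD4 cells, and 0.00 (-0.15 to 0.16) in Foxp3-positive cells.

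Csf2 was at 2588 CPM (2364 to 2828), 974 CPM (893 to 1061) and 90.3 CPM (55.2 to 139) in ILC2 cells, above every other population in each library. These levels rested on 14, 27 and 4 cells with a Csf2 UMI, and 3, 3 and 2 cells held at least 50% of the UMIs. Cd3e-containing cells made up a larger part of the combination's ILC2 cells, as given above. In the 21, 70 and 10 ILC2 cells without any Cd3 UMI the level was 3853 (3458 to 4280.2), 1559 (1418 to 1711) and 362 (214 to 572) CPM, in the same order. No ratio was taken, since fewer than 100 cells were present in 2 of the libraries. Of the other genes, ILC2 cells had Tnf at 169.7, 104 and 18.1 CPM on 32, 56 and 4 UMIs, Il10 at 0, 78.1 and 58.7 CPM and Csf1 at 21.2, 33.5 and 99.4 CPM. Of the 32 Tnf UMIs with mono-IL-10, 17 lay in 1 cell. In the ILC2 cells without any Cd3 UMI, Tnf was at 155, 190 and 40.2 CPM, Il10 at 0, 59.7 and 0 CPM and Csf1 at 22.2, 21.1 and 60.3 CPM, on 2, 6 and 3 UMIs of Csf1, so that the Il10 of the combination's ILC2 cells lay only in those with Cd3 UMIs. Among the larger populations, Foxp3-negative CD4 cells had 21.5 CPM (18.5 to 24.9) with mono-IL-10, 40.5 CPM (37.7 to 43.3) with IL-10/2-Trikine and 31.5 CPM (29.4 to 33.6) with the combination, highest with IL-10/2-Trikine. In the mono-IL-10 library, 2 of these cells held at least 50% of the 186 UMIs and 1 cell held 53. The thinned shares, 0.448% (0.180 to 0.921%), 1.31% (0.871 to 1.89%) and 2.12% (1.66 to 2.66%) (1.53, 6.53 and 5.23% before thinning), put the combination highest. Foxp3-positive cells had 3.48, 17.3 and 14.5 CPM on 6, 102 and 99 UMIs, in 2, 15 and 21 cells. Empty droplets had Csf2 at 4.72, 16.5 and 11.5 CPM, close to these levels and with the same order, while neutrophil-like cells held 0, 2 and 0 UMIs, and the part of free RNA in the Foxp3-positive levels was not tested. Of the Csf2 UMIs of Foxp3-positive cells, at least 50% lay in 4 cells with IL-10/2-Trikine and in 2 with the combination. The highest cells held 19 and 41. Csf2 was at 6.78, 1.83 and 3.10 CPM in NK, 1.32, 0.893 and 1.02 CPM in NK-receptor T and 0.156, 0.646 and 1.12 CPM in CD8 cells. The log2 ratio of IL-10/2-Trikine over mono-IL-10 was 0.91 (0.68 to 1.15) in Foxp3-negative CD4 cells, 2.31 (1.14 to 3.79) in Foxp3-positive and -1.89 (-3.30 to -0.62) in NK cells. For the first of these, a gate that asked for marker UMIs in each cell without clustering gave 0.0535. For the second, the ratio without the highest cell of each library was 4.60, but the 6 UMIs of mono-IL-10 lay in 2 cells, so nothing was read from it. For the combination over IL-10/2-Trikine it was -0.36 (-0.50 to -0.22) in Foxp3-negative CD4 cells.

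Cytokine gene ratios past 2-fold were more frequent between the mono-IL-10 and IL-10/2-Trikine libraries than between the combination and IL-10/2-Trikine. The same held for the ratios of all genes, at 10.9 and 4.15%. A ratio was taken where the pair of libraries held at least 20 UMIs of a gene. In CD8 cells, 1 of 7 cytokine genes was more than 2-fold higher (Csf2) and 3 were more than 2-fold lower (Tnf, Il2, Il21) with IL-10/2-Trikine, where 10.1% of 13575 genes were past 2-fold in either direction. Csf2 of CD8 cells, at 2.05 (0.47 to 4.06), rested on 4 and 20 UMIs, its levels of 0.156 and 0.646 CPM lay below those of empty droplets, which were also higher with IL-10/2-Trikine, and too few UMIs remained for a ratio without the highest cell. In Foxp3-negative CD4 cells 3 of 7 were lower (Tnf, Il2, Il21) and none was higher, against a background of 15.9%. In NK-receptor T cells 4 of 6 were lower (Ifng, Tnf, Il2, Csf1) against 14.7%. Of these, Il2 was at -1.29 (-2.84 to 0.70) on 4 and 23 UMIs, an interval that includes 0, and Csf1 changed sign without predicted doublets, as given above. In NK cells 3 of 4 were lower (Ifng, Il10, Csf2) and 1 higher (Tnf) against 6.52%. In Foxp3-positive cells 1 of 6 was higher (Csf2) and none lower against 5.82%. Over the 5 populations this made 16 of 30 ratios past 2-fold (3 higher and 13 lower), where 10.9% of 58244 ratios over all genes were, and 10 of 22 against 7.67% of 50336 where at least 50 UMIs were asked for. The 16 include Il10 of NK cells, whose thinned share with mono-IL-10 lay below that of neutrophil-like cells, and Tnf of NK cells, whose interval of -0.20 to 2.74 includes 0. The 7 genes were chosen with earlier results of these data known, and the genes of the background were not matched to them in UMIs. No conclusion was therefore drawn from the counts above the background. TMM scaling moved the ratios of the 5 populations up by 0.12 to 0.26 and gave 5 higher and 11 lower. Over all genes the median was -0.18 to -0.08 in the 5 populations, whereas the median of the cytokine genes was -0.89 in CD8, -0.96 in Foxp3-negative CD4, 0.27 in Foxp3-positive, -1.19 in NK-receptor T and -1.60 in NK cells.

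For the combination over IL-10/2-Trikine, 1 of 7 cytokine genes was past 2-fold in CD8 cells (Csf1, higher), where 5.76% of all genes were. The Csf1 levels of CD8 cells, 10.4 and 23.6 CPM, lay below those of empty droplets given above, which are not the levels that free RNA gives in cells. They lay above the 1.83 and 3.47 CPM of NK cells in the same libraries. The part of free RNA was not tested. None of 7 was past 2-fold in Foxp3-negative CD4 cells against 4.6%, none of 6 in Foxp3-positive cells against 2.29%, and none of 5 in NK cells against 3.29%. In NK-receptor T cells 2 of 6 were higher (Il2, Csf1) against 4.32%, on 23 and 15 UMIs of Il2 and 39 and 30 UMIs of Csf1. The ratio of Il2, at 1.02 (-0.03 to 2.02), had an interval that includes 0 and was -0.0135 in the gate on marker UMIs. The medians of the cytokine genes were 0.80, 0.49, -0.03, 0.42 and 0.46 in CD8, Foxp3-negative CD4, Foxp3-positive, NK-receptor T and NK cells, beside 0.05, 0.03, 0.02, 0.05 and 0 for all genes. Within 2-fold, Ifng, Csf1, Il10 and Il21 of Foxp3-negative CD4 cells had intervals above 0, and Csf2, at -0.36 (-0.50 to -0.22), had one below 0. The 2 comparisons share the IL-10/2-Trikine library, so that a low or high value there moves both.

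**Figure D2:**
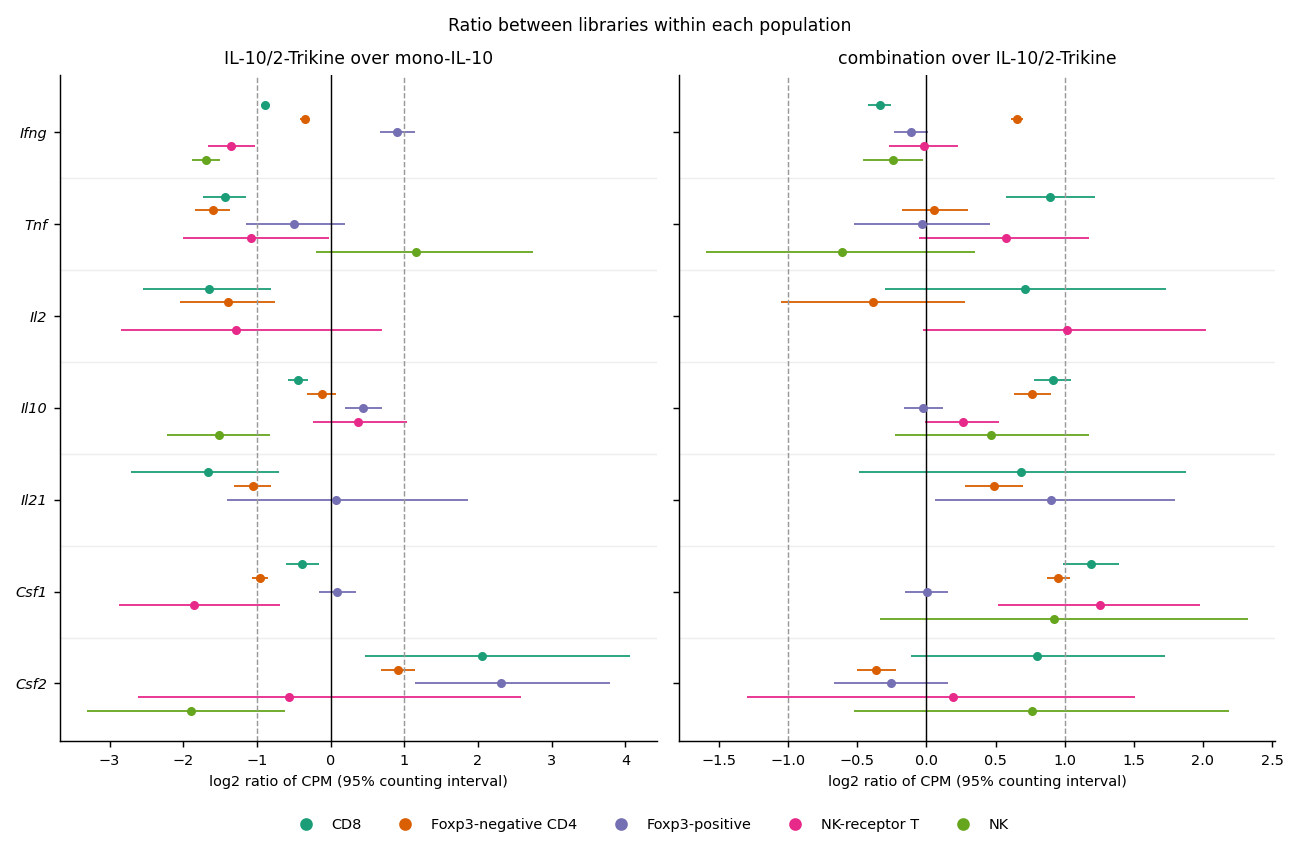
Log2 ratio of the level between libraries for each gene and population, with exact 95% counting intervals; dashed lines mark 2-fold, and only pairs with at least 20 UMIs are drawn. On the left, points for CD8, Foxp3-negative CD4, NK-receptor T and NK cells lie mostly below 0, and those above it are Csf2 of CD8 and of Foxp3-negative CD4 cells, Tnf of NK and Il10 of NK-receptor T cells, and on the right most points lie between 0 and the 2-fold line.

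The share of each gene's UMIs that lay in each population shows which cells held the transcripts. CD8 cells held 28.1, 13.8 and 7.01% of all Ifng UMIs of kept cells in the 3 libraries, and Foxp3-negative CD4 cells held 18.7, 25.7 and 48.6%. Of the UMIs of all genes, the 2 populations held 17.2, 16.1 and 13.5% and 5.81, 10.5 and 16.5%. The CD4 part of Ifng was thus above the CD4 part of all UMIs in every library, and the CD8 part was above it only with mono-IL-10. Foxp3-negative CD4 cells also held 29.7, 25.3 and 47.4% of Csf1 and 45, 40.9 and 55.4% of Il21. For Csf2, ILC2 cells held 41.9, 20.8 and 1.18%, Foxp3-negative CD4 cells 16, 32.4 and 50.2%, monocyte/macrophage-like cells 31, 11.8 and 5.11% and T cell-like cells outside the 6 populations 6.43, 14.3 and 28.3%. A further 12.4% of Csf2 with IL-10/2-Trikine lay in cDC2-like cells, which held 11.3% of all UMIs of that library. Of these cells 64.4% had a Cd3e UMI, and how much of their Csf2 came from T cell transcripts was not tested. By contrast, monocyte/macrophage-like cells held 81, 71.4 and 84% of Tnf and the 6 lymphocyte populations together 6.39, 9.73 and 7.12%. Monocyte/macrophage-like cells held 55.2, 24 and 28% of Il10 and Foxp3-positive cells 2.76, 11.5 and 10.4%. Of the UMIs of all genes, monocyte/macrophage-like cells held 47.3, 18.8 and 29.3% and Foxp3-positive cells 1.16, 3.07 and 4.15%. Monocyte/macrophage-like cells had Cd3e UMIs in 19.6 to 24.4%. How much of the Ifng counted in them (23.2, 11.5 and 9.16%) lay in barcodes that also held T cell transcripts was not tested.

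**Figure D3:**
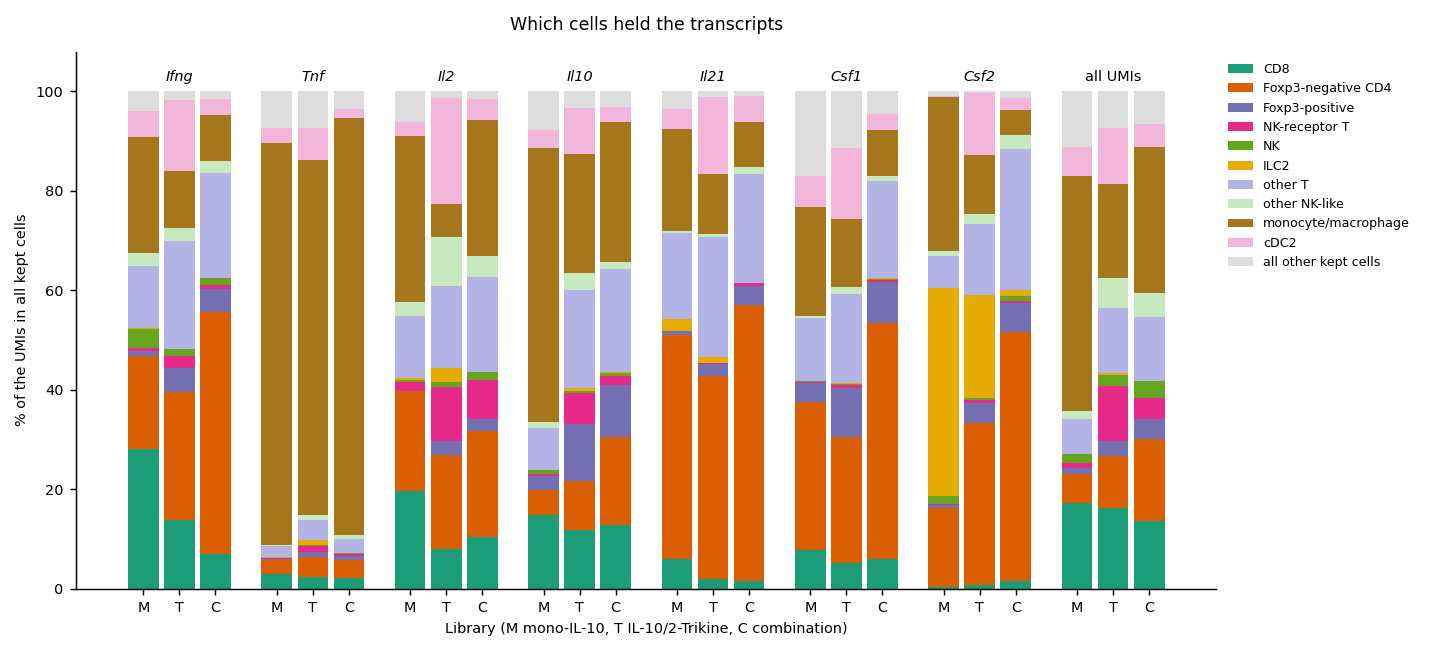
Share of the UMIs of each gene in all kept cells that lay in each population, as stacked bars for the 3 libraries, with all genes together on the right. The Foxp3-negative CD4 part of Ifng was 18.7% with mono-IL-10 and 48.6% with the combination, and the CD8 part was 28.1 and 7.01%.

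Within each population a small number of cells carried a large part of the transcripts. For Ifng, 66 of 1631, 78 of 2158 and 121 of 3478 Foxp3-negative CD4 cells held 50% of the UMIs, and the highest cells had 136, 156 and 540 UMIs. Cells with 10 or more Ifng UMIs numbered 66, 134 and 282. Csf1 was spread more evenly, with 50% of its UMIs in 73, 137 and 320 Foxp3-negative CD4 cells and no cell above 22 UMIs. For Csf2 the corresponding numbers were 2, 14 and 27 cells, with highest counts of 53, 85 and 39.

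Some cytokine transcripts were found together in the same cells more often than in cells without the other. Among Foxp3-negative CD4 cells thinned to 1000 UMIs, 21.8, 16 and 20.6% of those with Ifng also had Csf1, against 8.62, 8.46 and 13.1% of those without. Of the cells with Il21, 54.1, 31 and 42.5% also had Ifng, against 18.2, 14.7 and 19.96% of the other cells. Of the cells with Il10, 14.7, 20 and 29.3% also had Csf1, against 11.1, 9.20 and 13.9%. The intervals of the cells with and without the first gene overlapped for Il10 and Csf1 in the mono-IL-10 library, on 34 cells with Il10, and for Il21 and Ifng with IL-10/2-Trikine, at 15.3 to 50.8% on 29 cells with Il21 against 13.2 to 16.3%. In the combination library, 45.8% of the 72 cells with Csf2 had Ifng, against 19.9% of the rest, whereas with IL-10/2-Trikine it was 17.9% (6.06 to 36.9%) of 28 cells against 14.9% (13.4 to 16.5%), intervals that overlap. Thinned cells with 3 or more of the 7 transcripts made up 1.15, 0.467 and 1.27% of Foxp3-negative CD4 cells, and no CD8 or NK cell had as many. In Foxp3-positive cells they numbered 0, 4 and 6. Thinned cells with none of the 7 made up 69.3, 72.3 and 64.2% of Foxp3-negative CD4 cells and 76.1, 67.5 and 69.6% of Foxp3-positive cells. Droplets with 2 cells also put transcripts together, and Scrublet called 12.5, 13.5 and 11.4% of the kept barcodes doublets. Their part in these shares was not tested.

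The study treats cycling T cells as a state of their own, so each population was split by whether a cell had a UMI of Mki67, a marker of cycling cells. In Foxp3-negative CD4 cells 22.4, 50.1 and 37.7% had one. Csf1 was at 196, 183 and 246 CPM without Mki67 and 89.6, 51 and 96.1 CPM with it, and in Foxp3-positive cells it was at 186, 217 and 190.2 CPM without Mki67 and 40.3, 67.4 and 73.5 CPM with it. In all 6 pairs the cells without Mki67 were higher and the intervals did not overlap. Il10 had the same order in Foxp3-positive cells, at 159.5, 246 and 209 CPM without Mki67 and 54, 92.1 and 98.9 CPM with it. In Foxp3-negative CD4 cells Il10 was at 35.4, 73.6 and 98.8 CPM without Mki67 and 36.7, 22 and 29.8 CPM with it, with no such difference in the mono-IL-10 library. Ifng had this order only in Foxp3-negative CD4 cells with mono-IL-10 and the combination and in Foxp3-positive cells with mono-IL-10. In Foxp3-positive cells Ifng was at 144, 133 and 126 CPM without Mki67 and 68.8, 204 and 190 CPM with it. Ifng was at 412, 259 and 482 CPM without Mki67 and 303, 297 and 438 CPM with it in Foxp3-negative CD4 cells, and in CD8 cells at 181, 61.9 and 69.5 CPM without Mki67 and 194, 117 and 90.8 CPM with it. Tnf of Foxp3-negative CD4 cells was at 43.4, 20.2 and 16.5 CPM without Mki67 and 29.4, 10.4 and 10.8 CPM with it, lower with Mki67 in each library. Cells with an Mki67 UMI had median depths of 7425, 13408 and 11652 UMIs against 3612, 3152 and 3918, and the part of depth in the split was not tested.

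**Figure D4:**
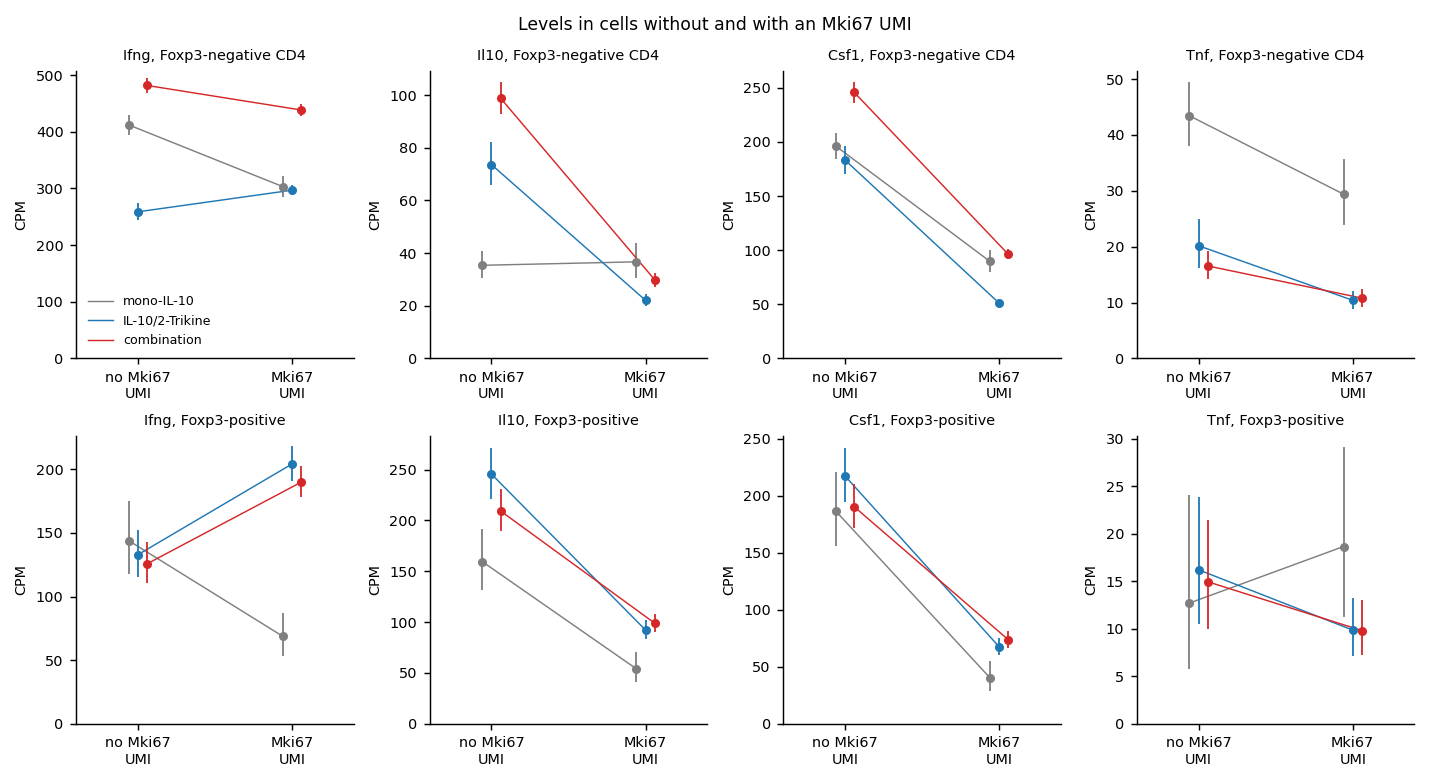
Level in CPM of Ifng, Il10, Csf1 and Tnf in Foxp3-negative CD4 and Foxp3-positive cells without and with an Mki67 UMI, with exact 95% Poisson intervals and a line per library. Csf1 lines slope down in both populations and all 3 libraries, and Ifng lines cross.

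Since the 3 libraries held different shares of Mki67-positive cells, the comparisons were repeated in cells without an Mki67 UMI. In Foxp3-negative CD4 cells the log2 ratio of IL-10/2-Trikine over mono-IL-10 was then -0.10 (-0.23 to 0.04) for Csf1 in place of -0.96, 1.06 (0.79 to 1.33) for Il10 in place of -0.12, -0.67 (-0.78 to -0.57) for Ifng in place of -0.35 and -1.11 (-1.48 to -0.74) for Tnf in place of -1.60. For Csf2 it was 0.25 (-0.07 to 0.57) in place of 0.91, and 2.75 (2.13 to 3.45) in cells with Mki67, on 21 and 658 UMIs. The lower Csf1, the higher Csf2 and the nearly equal Il10 of the whole population were therefore not found in its Mki67-negative cells, whereas the lower Ifng and Tnf were. In the cells with Mki67, Ifng was at -0.03 (-0.13 to 0.07). In CD8 cells without Mki67, Ifng was at -1.55 (-1.69 to -1.42), and in Foxp3-positive cells without Mki67 it was at -0.12 (-0.47 to 0.24) in place of 0.90, so that the higher Ifng of Foxp3-positive cells with IL-10/2-Trikine was not found in the Mki67-negative ones. For the combination over IL-10/2-Trikine, the Mki67-negative Foxp3-negative CD4 cells gave 0.90 (0.80 to 0.99) for Ifng, 0.42 (0.31 to 0.54) for Csf1 and 0.42 (0.24 to 0.61) for Il10. Ifng of CD8 cells was 0.17 (0.01 to 0.33) in Mki67-negative cells and -0.36 (-0.47 to -0.26) in Mki67-positive cells.

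The study also singles out CD4 T cells with PD-1 and ICOS, encoded by Pdcd1 and Icos. Foxp3-negative CD4 cells with UMIs of both genes numbered 543, 1186 and 2197. Ifng was at 455, 318 and 499 CPM in them and 294, 222 and 319.5 CPM in the remaining cells, higher in 3 of 3 libraries with intervals apart. Csf1 was at 221, 80.5 and 158 CPM in the double-positive cells and 95.2, 75.1 and 138 CPM in the rest, a difference past 2-fold with mono-IL-10 and within 2-fold in the other libraries. Csf2 was at 37.8, 41.4 and 31.8 CPM in the double-positive cells and 7.35, 38.3 and 30.4 CPM in the rest, an order that rested on few cells. Without the 2 cells of each library with most Csf2 UMIs, a choice made after seeing the data, it was at 13.04, 41.4 and 30.4 CPM and 7.35, 16.1 and 24.7 CPM, so that with mono-IL-10 the difference was within 2-fold with overlapping intervals and with IL-10/2-Trikine it was past 2-fold. Il10 was higher in the double-positive cells with mono-IL-10 and lower with the other libraries, at 43.8, 25.9 and 43.2 against 29, 49.1 and 94.7 CPM. Tnf was at 33.4, 10.1 and 12.5 CPM in the double-positive cells and 41.7, 17.9 and 14.4 CPM in the rest. Within the double-positive cells the combination over IL-10/2-Trikine gave 0.65 (0.60 to 0.70) for Ifng and 0.97 (0.87 to 1.07) for Csf1. Double-positive cells were deeper, with medians of 5597, 9274 and 7047 UMIs against 3471, 3756 and 3596.

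In a finer clustering, 1 T cell-like cluster had the highest levels of Ifng, Csf1 and Csf2 of the T cell-like clusters in every library, and of Il10 and Il21 in 2 of the 3. Its leading genes were Csf1, Ermn and Penk, and Ifng and Il21 were also among its 10 leading genes, so that its cytokine levels are part of what defined it and are given as a description. It held 2334 cells and had Ifng at 1002, 623 and 839, Csf1 at 480, 305 and 340, Il10 at 91.5, 160 and 141, Csf2 at 81.7, 72.4 and 57.1 and Il21 at 50.3, 23.3 and 35.2 CPM in the 3 libraries. Il21 with IL-10/2-Trikine was higher in clusters led by Gm47957 and Tnfsf8 (32.5 CPM) and by the heat shock genes Hspa1a and Hspa1b (25.4 CPM), and Il10 with mono-IL-10 was higher in the cluster led by Foxp3 (111 CPM). The upstream sequences of 4 of these 5 genes are printed above. Il2 had another pattern, at 0.786, 1.07 and 0.367 CPM in this cluster and 8.21, 2.26 and 5.22 CPM in the naive-like cluster led by Dapl1 and Igfbp4, on 2, 4 and 4 UMIs and on 45, 2 and 3 UMIs. Tnf was at 20.8, 15.8 and 15.1 CPM in the first and 31.9, 6.77 and 10.4 CPM in the second, higher in the naive-like cluster only with mono-IL-10. The populations of the 3 libraries were drawn in different parts from these clusters. Of the CD8 cells, 24.6% with IL-10/2-Trikine and 9.76% with the combination lay in a cycling cluster led by H1f5, Rrm2 and Ccna2, which was not among the 3 largest parts with mono-IL-10, where the naive-like cluster was. For Foxp3-negative CD4 cells the parts differed as well. With mono-IL-10 the largest parts lay in the naive-like cluster (18%) and in the Csf1-led cluster (17.4%). With IL-10/2-Trikine they lay in a cycling cluster led by Ccl1, Rrm2 and Xcl1 (31.3%) and in one led by Tnfsf8 and Cd40lg (24.1%). With the combination they lay in the Csf1-led cluster (31.4%) and the cycling one (19.2%). NK-receptor T cells, which by the rule had no Trdc UMI themselves, were mostly in a cluster led by Trdc and Klra6 with mono-IL-10 (78.9%) and the combination (67%), and in a cycling one led by Klra6, Klra5 and Pclaf with IL-10/2-Trikine (50.8%).

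**Figure D5:**
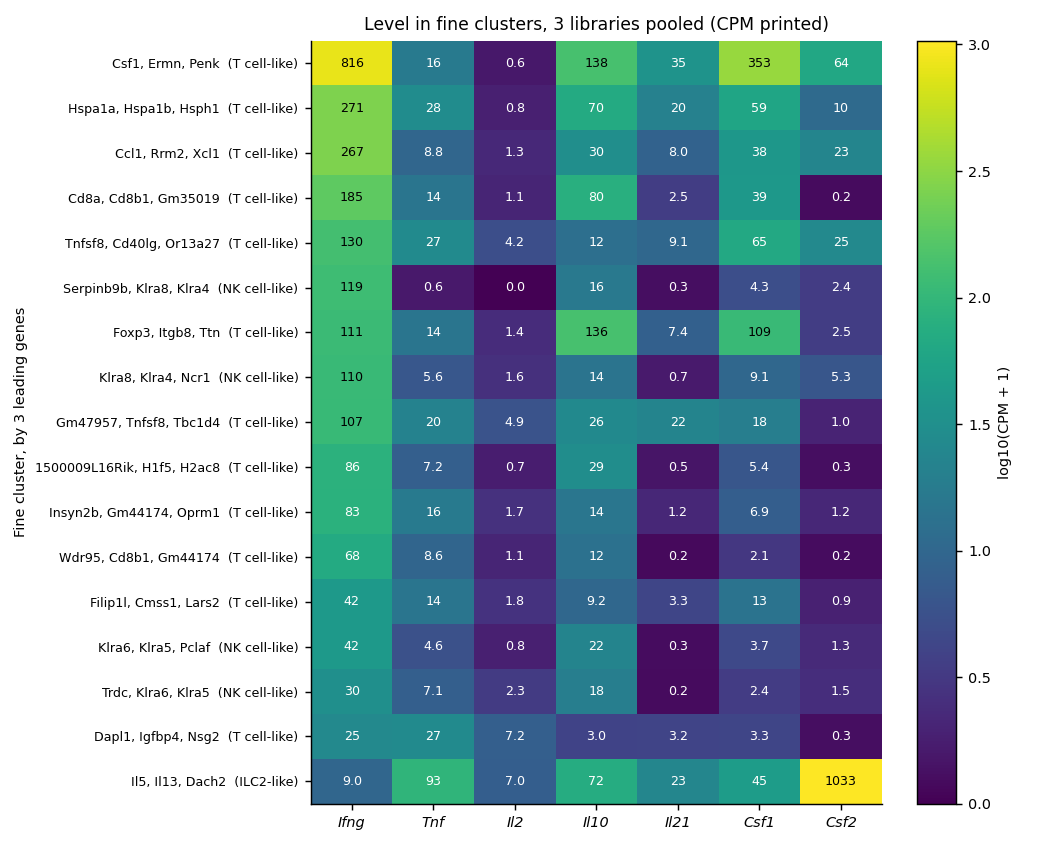
Pooled level (CPM, printed; color on a log10 scale) of the 7 genes in 17 fine clusters of T cell-like, NK cell-like and ILC2-like cells, named by 3 leading genes and ordered by Ifng. The Csf1-led cluster in the top row had Ifng at 816 and Csf1 at 353 CPM, and the ILC2-like cluster in the bottom row had Csf2 at 1033 CPM.

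The pattern of each gene over 15 points (5 populations in 3 libraries) was compared with that of 7477 genes by Pearson's r of log2(CPM + 1). The 15 points share libraries and depth, and r is a description. Csf1 was most like Batf (0.989), a transcription factor of activated T cells, Hif1a (0.984), which responds to low oxygen, and Penk (0.984), the precursor of enkephalins. Ifng was most like Ccl3 (0.951), a chemokine, followed by Ube2d3 (0.923) and Spred1 (0.921). Il10 was most like Dclk2 (0.958), Rilpl2 (0.948) and Ctla4 (0.948), the last an inhibitory receptor of regulatory T cells. The genes most like Il21 were Ece1 (0.970), Farp1 (0.963) and Senp1 (0.948), and those most like Csf2 were Igfbp7 (0.929), Ppfibp1 (0.927) and Mapkapk3 (0.915). Tnf was most like Setd3 (0.936), Klhl3 (0.934) and Ucp2 (0.930), and Il2 was most like Ylpm1 (0.927), Tmem245 (0.863) and Cep135 (0.819), on few UMIs of Il2. Among the 7 genes, Csf1 and Il21 were the most alike (0.886) and Il2 and Il10 the least (-0.049).

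Genes that act on these cytokine genes were followed in the same comparisons. Of 37 regulators of cytokine gene transcription, 35 or 36 could be compared, and with IL-10/2-Trikine over mono-IL-10 none was more than 2-fold higher in any of the 5 populations. The number more than 2-fold lower was 5 in CD8, 7 in Foxp3-negative CD4, 4 in Foxp3-positive, 12 in NK-receptor T and 6 in NK cells, and the list's median log2 ratio was -0.43, -0.57, -0.20, -0.75 and -0.56, against -0.18 to -0.08 for all genes. Of all genes, 7.13, 10.7, 3.64, 8.33 and 2.98% were more than 2-fold lower in these 5 populations and 2.95, 5.25, 2.18, 6.41 and 3.54% more than 2-fold higher, and the counts of the lists that follow are to be read beside these shares. Jun, a subunit of AP-1, went from 169 to 34 CPM (-2.31, -2.44 to -2.18) in Foxp3-negative CD4 cells, from 152 to 29.5 CPM (-2.36, -2.46 to -2.25) in CD8 cells and from 215 to 22.9 CPM (-3.23, -3.43 to -3.02) in NK-receptor T cells. It went from 376 to 66 CPM (-2.51, -2.70 to -2.32) in NK cells and from 97.9 to 46.1 CPM (-1.09, -1.37 to -0.80) in Foxp3-positive cells. Why Jun was lower in all 5 populations was not tested. Fos, its partner, went from 124 to 33.8 CPM (-1.87, -1.97 to -1.77) in CD8 and from 335 to 102 CPM (-1.72, -1.89 to -1.56) in NK cells. Eomes, a T-box factor of cytotoxic lymphocytes, went from 91.5 to 41.8 CPM (-1.13, -1.23 to -1.03) in CD8 cells and from 63.8 to 4.99 CPM (-3.68, -4.00 to -3.37) in Foxp3-negative CD4 cells. Bcl6, the regulator of follicular helper T cells, went from 66 to 21.2 CPM (-1.64, -1.82 to -1.45) in the latter.

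Of 11 listed genes, 10 for factors that degrade or bind mRNA and Tnfaip3 for the NF-kappaB inhibitor A20, 2, 4, 0, 5 and 4 were more than 2-fold lower in the same 5 populations and none was higher, where 7.13, 10.7, 3.64, 8.33 and 2.98% of all genes were lower. Zfp36, which encodes tristetraprolin, a protein that destabilizes AU-rich cytokine mRNAs, went from 165 to 43.3 CPM (-1.93, -2.05 to -1.81) in Foxp3-negative CD4 cells and from 416 to 83.8 CPM (-2.31, -2.49 to -2.14) in NK cells. Tnfaip3 was among the lower genes in all of these populations but Foxp3-positive cells, and went from 512 to 238 CPM (-1.11, -1.15 to -1.06) in CD8 cells.

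Among 13 receptor genes for the 7 cytokines, Il2ra, the IL-2 receptor alpha chain, went from 66.3 to 255 CPM (1.94, 1.82 to 2.07) in Foxp3-negative CD4 cells and from 59.5 to 134 CPM (1.17, 0.87 to 1.49) in NK-receptor T cells with IL-10/2-Trikine over mono-IL-10. Il10ra, the ligand-binding chain of the IL-10 receptor, went from 62.1 to 25.8 CPM (-1.27, -1.39 to -1.14) in CD8 cells and from 76.5 to 33.8 CPM (-1.18, -1.50 to -0.87) in NK cells. The counts past 2-fold for the receptor list were 0 higher and 3 lower of 13 in CD8, 1 higher and 5 lower of 13 in Foxp3-negative CD4, 0 higher and 2 lower of 11 in Foxp3-positive, 1 higher and 2 lower of 12 in NK-receptor T and 0 higher and 2 lower of 10 in NK cells, beside the shares of all genes given with the regulators. Of 21 other lymphocyte cytokine genes, 4 higher and 1 lower of 13 were past 2-fold in CD8 cells, 4 higher and 2 lower of 16 in Foxp3-negative CD4, 2 higher and 1 lower of 12 in Foxp3-positive, 2 higher and 1 lower of 10 in NK-receptor T and 0 higher and 0 lower of 8 in NK cells. The list medians were -0.07, 0.04, 0.31, -0.16 and -0.24, and of all genes 2.95, 5.25, 2.18, 6.41 and 3.54% were higher and 7.13, 10.7, 3.64, 8.33 and 2.98% lower. Areg, which encodes amphiregulin, was the named gene of this list, from 27.8 to 57.2 CPM (1.04, 0.92 to 1.17) in CD8 cells. For the combination over IL-10/2-Trikine, the regulators had medians of 0.28, 0.33, 0.18, 0.35 and 0.32 in CD8, Foxp3-negative CD4, Foxp3-positive, NK-receptor T and NK cells, beside 0.05, 0.03, 0.02, 0.05 and 0 for all genes.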

How the data were processed

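Single-cell RNA of CD45-sorted tumor cells was captured with the 10x Genomics 3′ Gene Expression v3.1 chemistry in 3 libraries, 1 per treatment. The authors deposited raw matrices of UMI counts per gene and barcode, not normalized, made with Cell Ranger (8.0.0 in the matrix header). The submitters' processing notes name the mm10 build whereas the study's methods name a later annotation, so no coordinate was taken from the files. Intronic reads were included by the authors, and overlapping or antisense genes cannot all be told apart.

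A barcode was kept as a cell when it had 200 or more genes with a UMI and no more than 20% of its UMIs from mitochondrial genes. Cells were clustered with scanpy 1.11.5 and leidenalg 0.10.2 (2000 variable genes, 30 components, 20 neighbors, resolution 1, and 2 for fine clusters), and a cluster was named from at least 3 markers that passed 1.5-fold and 10% of cells. Populations within T cell-like and NK cell-like clusters were then set by UMIs of Cd8a, Cd8b1, Cd4, Foxp3 and the Cd3 genes, NK-receptor T cells were cells with a Cd3 UMI and no Trdc UMI in NK cell-like clusters where at least 50% of cells had Cd3e, and NK cells were cells without a Cd3 UMI in the other NK cell-like clusters. Doublets were kept in the main values. Scrublet's automatic threshold called cells in 1 library only, so that this threshold was applied to all for the alternative without doublets.

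Levels were summed UMIs scaled to 1000000 (CPM) with exact 95% Poisson intervals, shares had exact Clopper-Pearson intervals, and ratios between libraries had exact conditional binomial intervals, each for counting error only. Ratios were taken for genes with at least 20 UMIs in a pair and populations of at least 100 cells in both libraries. Thinning left out shallower cells, 82, 62 and 203 of CD8, 69, 18 and 84 of Foxp3-negative CD4, 12, 9 and 10 of Foxp3-positive, 7, 19 and 37 of NK-receptor T and 20, 137 and 244 of NK cells. With 1 library per group no test was run. The ratio function was tested on simulated data.

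Named genes were the 7 cytokine genes, up to 3 genes past 2-fold in each direction from each context list (at 50 CPM or more in the higher library), the 3 genes most like each cytokine gene (at 20 CPM or more in at least 1 point) and the markers. A gene that this rule names from the regulator list is not reported here. The members and lists were chosen with earlier results of these data known. Alternatives were TMM factors (edgeR 4.0.16 in R 4.3.3), median-of-ratios factors, at least 500 genes per cell, doublets removed, resolution 2, a gate on marker UMIs without clusters, a mean over cells, cells with 2 or more C1q UMIs removed, cells without Mki67, regulatory-like clusters left out, thinning to 500 or 2000 UMIs, and minimums of 1 or 50 UMIs. Leaving out the highest cell, naive-like clusters, or ILC2 cells with a Cd3 UMI was added after seeing the data. The scripts ran in Python 3.11.15 with pandas 2.3.3, scipy 1.17.1 and numpy 2.4.6.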

Additional observations from a re-analysis of the deposited data

Results flagged for a closer look

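For IL-10/2-Trikine over mono-IL-10, the log2 ratio of Ifng was 0.90 in Foxp3-positive cells and -1.69 in NK cells, a difference of 2.58 between 2 populations with opposite directions. In Foxp3-positive cells without an Mki67 UMI the ratio was -0.12 (-0.47 to 0.24). For Csf2 the same 2 populations had log2 ratios of 2.31 and -1.89, a difference of 4.21, on 6 and 102 UMIs in Foxp3-positive cells and 18 and 8 UMIs in NK cells. Csf2 in empty droplets was at 4.72 and 16.5 CPM in the same libraries. Of the 102 UMIs in Foxp3-positive cells, 19 lay in 1 cell. With 1 library per treatment neither difference was tested. Each was picked out because the lone libraries of the 2 populations lay on opposite sides of equality.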

How the results depend on the processing

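The log2 ratios of each gene in its highest population of at least 100 cells (Foxp3-positive cells for Il10, Foxp3-negative CD4 cells for the others) kept their direction under 12 alternatives (11 for Il10) in 12 of 14 cases. The exceptions were both for the combination over IL-10/2-Trikine, Tnf in 10 of 12 and Il10 in 8 of 11, with main values close to 0. For IL-10/2-Trikine over mono-IL-10, TMM factors gave -0.0959 for Ifng, -1.35 for Tnf, -0.80 for Il21, -0.71 for Csf1 and 1.17 for Csf2, and median-of-ratios factors gave -0.17 for Ifng and -0.78 for Csf1. In cells without Mki67 the values were -0.67 for Ifng, -1.11 for Tnf, -0.58 for Il2, -0.0985 for Csf1 and 0.25 for Csf2. A mean over cells gave -1.35 for Tnf, 0.80 for Il10 and -0.31 for Csf1, and the gate on marker UMIs gave 0.11 for Il10, -0.79 for Csf1 and 0.0535 for Csf2. Without regulatory-like clusters Csf1 was at -1.11, without naive-like clusters Ifng was at -0.52, Il2 at -0.34 and Csf1 at -1.14, and without the highest cell Csf2 was at 1.23. For the combination over IL-10/2-Trikine, cells without Mki67 gave 0.90 for Ifng, -0.28 for Tnf, -0.23 for Il10, 0.42 for Csf1 and -0.51 for Csf2. Without regulatory-like clusters Ifng was at 0.71 and Csf1 at 1.07, a mean over cells gave -0.21 for Il10, 0.64 for Csf1 and -0.0686 for Csf2, and the gate gave -0.0527 for Csf2. Ratios past 2-fold were 16 of 30 for IL-10/2-Trikine over mono-IL-10 and 3 of 31 for the combination over IL-10/2-Trikine. Of all gene ratios, 10.9 and 4.15% were. With at least 50 UMIs the counts were 10 of 22 against 7.67% and 2 of 23 against 1.94%. In cells without Mki67, where fewer cells and UMIs remained, they were 10 and 6. No share over all genes was taken in those cells, so nothing was read from the latter counts. The other alternatives gave 12 to 18 and 2 to 4. With a minimum of 1 UMI these were 18 of 34 against 34.7% of all gene ratios and 4 of 34 against 26.7%. For the rest no share over all genes was taken. Of the 19 ratios past 2-fold in any population, 2 changed sign, both in NK-receptor T cells: Csf1 to 0.57 with doublets removed (IL-10/2-Trikine over mono-IL-10) and Il2 to -0.0135 in the gate (combination over IL-10/2-Trikine). Of the 42 within 2-fold, 17 changed sign under at least 1 alternative. Among these, Ifng of CD8 and Il21 of Foxp3-positive cells (combination over IL-10/2-Trikine) and Ifng of Foxp3-positive cells (IL-10/2-Trikine over mono-IL-10) had main intervals on 1 side of 0 and went to 0.17 without Mki67, -0.0163 in the gate and -0.12 without Mki67. Csf2 of Foxp3-positive cells went from -0.25 to 1.25 without Mki67, and Il10 of Foxp3-negative CD4 cells from -0.12 to 0.13 with TMM factors and 1.06 without Mki67. The cause of these changes was not tested. For 21 pairs of result and alternative too few UMIs remained for a value. No paired analysis was possible because each group is 1 library, and no replicate could be left out. Depth limits Il2, Il21 outside CD4 cells and Csf2 outside CD4 and ILC2 cells most.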
